A study of Homo sapiens with 9 samples.

Results

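The library from HEK293 cells depleted of both SMG6 and XRN1 was set against the library from cells given a control siRNA. The comparison covered the 12164 of 22266 assembled loci whose mean over the 4 RNA-seq libraries was at least 1 FPKM (fragments per kilobase of transcript, scaled to library size), and 61408 of 199618 assembled isoforms. The series holds 9 samples, of which 4 are RNA-seq libraries, and the 5' end and CAGE libraries were not analysed here. All 4 RNA-seq groups came from the b-39 subline of HEK293 Flp-In T-Rex, a human embryonic kidney-derived cell line that carries at its Flp-In site a β-globin reporter with a premature stop at codon 39. The control received siRNA against EGFP, a sequence foreign to these cells, and the other groups were depleted by siRNA of XRN1 alone, of SMG6 and XRN1, or of UPF1 and XRN1. Cytoplasmic poly(A)+ RNA was released with digitonin and made into libraries with ScriptSeq v2. There was 1 library per group, so no spread between replicates and no test exist, and every difference describes these 2 libraries. The sources used here give neither the time of depletion nor any protein level.

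Nonsense-mediated decay (NMD) removes mRNAs on which a ribosome stops well before the last exon junction, as well as some mRNAs with normal coding regions. UPF1 is the helicase at the core of the pathway, and SMG6 is the endonuclease that cuts the target near the stop codon. The fragment downstream of the cut is degraded from its 5' end by XRN1, the main cytoplasmic 5'-to-3' exonuclease, which also degrades decapped mRNA of other decay routes. The XRN1 and UPF1/XRN1 libraries are given beside the comparison because XRN1 depletion is shared by all 3 depleted groups. Where 4 values are given in a row, the order is the control siRNA, then XRN1, then SMG6/XRN1, then UPF1/XRN1, and the log2 change of SMG6/XRN1 over control follows in brackets.

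The mRNAs of the depleted proteins did not check the label. XRN1 was at 7.80 FPKM in the control, 7.31 with XRN1 depletion, 10.1 in SMG6/XRN1 and 6.50 with UPF1/XRN1. SMG6 was at 4.77, 5.55, 7.66 and 5.97 FPKM in the same order, so neither mRNA was lower in the SMG6/XRN1 library than in the control. Reads scaled as the authors' spike-in signal gave ratios of SMG6/XRN1 over control of 1.13 (95% counting interval 1.05 to 1.20) for XRN1 and 1.30 (1.16 to 1.45) for SMG6. Both loci carry 3 gene symbols each. The sample is therefore meant below as the library labelled SMG6/XRN1. UPF1, which was not targeted in it, was at 6.71 FPKM in the control and 11.4 in SMG6/XRN1. HBB, whose locus takes in reads of a human β-globin reporter if the reporter is human, was at 139 FPKM in the control, 257 with XRN1, 355 with SMG6/XRN1 and 747 with UPF1/XRN1.

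Estimated reads ran from 31476528 in the control to 35983475 in UPF1/XRN1, with 34649923 in SMG6/XRN1. The gene table lists 1336 loci at 0 in the control and 1294 in XRN1, but 0 in either co-depletion library. Of 9 HEK293 markers, 7 were at or above 1 FPKM, with a summed level of 696 to 760 FPKM across libraries, while NEFM and PAX2 stayed below 1 FPKM. Of 24 markers of blood, liver, muscle and other cell types, 5 reached 1 FPKM, 12 had fewer than 3 reads in the control, and the summed level of 134 FPKM in both the control and SMG6/XRN1 was mostly the epithelial gene EPCAM at 120.3 and 121.1. The libraries are bulk RNA, so a lower level cannot be told apart between fewer cells expressing a gene and less RNA per cell.

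Changes are given as log2 of (FPKM + 1) in SMG6/XRN1 over (FPKM + 1) in the control, and a gene was called at 2-fold. Of the 12164 genes, 1131 (9.3%) were higher in SMG6/XRN1 by 2-fold or more and 32 (0.263%) lower by as much. At least 4-fold, 171 were higher and 9 lower, and 30 were at least 8-fold higher. Since no locus is listed at 0 in SMG6/XRN1, a complete loss cannot appear in this table, and the 2 counts are not alike in that respect. Of the 11294 genes at 1 FPKM or more in the control, 836 (7.40%) were higher. The other 870 passed the filter on the mean only through other libraries, and 295 of them were higher. The median gene was 0.25 above the control on the log2 scale, with quartiles of 0.00 and 0.58, and 75.3% of genes lay above 0. Subtracting that median left 635 higher and 79 lower. Of the 1131 higher genes, 1073 also passed 2-fold by scaled reads. For comparison, XRN1 over the same control had 500 genes higher (4.11%) and 45 lower (0.37%), and UPF1/XRN1 over it had 1244 higher (10.2%) and 70 lower (0.575%). SMG6/XRN1 over XRN1 alone had 166 higher (1.36%) and 21 lower (0.173%).

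**Figure D1:**
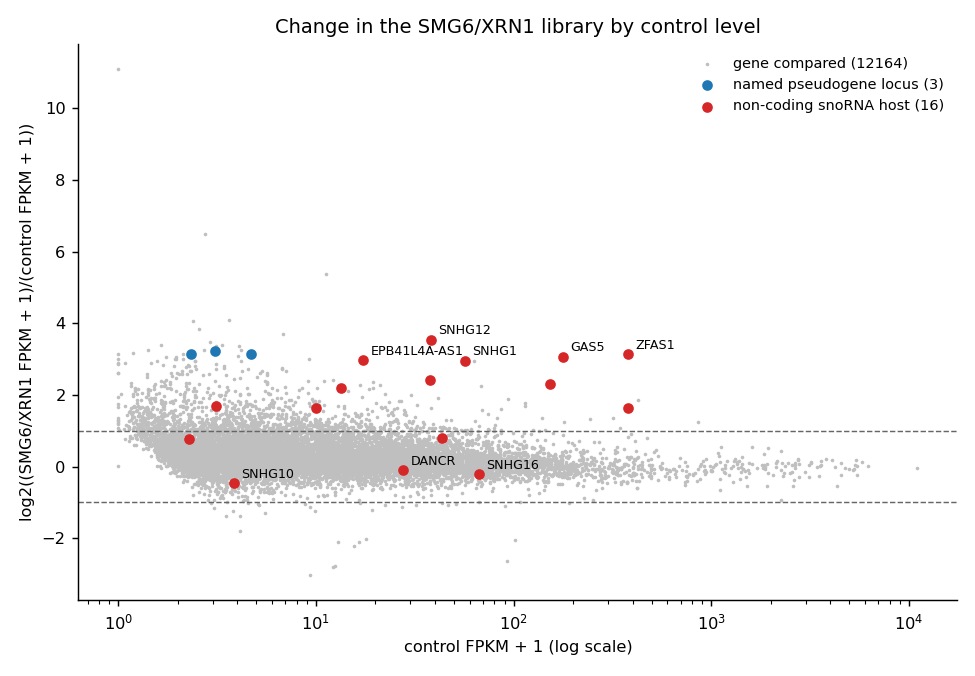
Each grey point is 1 of the 12164 genes compared, with the control FPKM plus 1 on a logarithmic axis and the log2 change in SMG6/XRN1 on the vertical axis, where the dashed lines mark 2-fold. Most of the 16 non-coding snoRNA hosts (red) lie above the upper line, up to 3.54 for SNHG12, and 3 named pseudogene loci (blue) lie above 3.

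The share of higher genes differed by gene class, taken from GENCODE by transcript identifier. These shares are not split by control level. Genes under 1 FPKM in the control, 295 of 870 higher, passed the filter only through other libraries. How far this moves the share of each class was not tested. Protein-coding genes had 779 of 10326 (7.54%) at least 2-fold higher and 13 lower. Pseudogenes had 133 of 373 (35.7%) higher and 6 lower, and long non-coding RNAs 109 of 844 (12.9%) higher and 3 lower. Within the pseudogenes the 2 kinds separated. Transcribed unprocessed pseudogenes, which arise by gene duplication and keep introns, had 81 of 148 (54.7%) higher, 0 lower and a median of 1.10, and unprocessed ones had 25 of 49 (51.0%) and a median of 1.13. Processed pseudogenes, which derive from reverse-transcribed mRNA and lack introns, had 14 of 124 (11.3%) higher and a median of 0.12. Among non-coding RNAs, genes of the processed transcript type had 25 of 76 (32.9%) higher, lincRNAs 35 of 204 (17.2%) and antisense RNAs 47 of 543 (8.66%). The sources used here do not say whether counting used strand, so values of antisense genes are uncertain, as are those of near-identical gene copies.

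Long non-coding RNAs that host small nucleolar RNAs (snoRNAs) stood farthest from the control among the 28 gene lists examined. These spliced transcripts carry snoRNAs in their introns, and many have short open reading frames that end far from the last junction, which makes them textbook NMD substrates. Of 24 listed, 16 were measured, 11 were at least 2-fold higher, 0 were lower, and the median was 1.94 against 0.25 for all genes. The same members had medians of 1.02 in XRN1 and 2.24 in UPF1/XRN1 over the control. All 28 lists were chosen with earlier results of these data known, so their shares only describe these libraries.

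SNHG12, on chromosome 1, was at 37.2 FPKM with the control siRNA, 129 after XRN1 depletion, 445 in SMG6/XRN1 and 479 with UPF1/XRN1 depletion. Its change in SMG6/XRN1 was 3.54 on the log2 scale, made of a step of 1.77 to XRN1 depletion and a further 1.78 to SMG6/XRN1, and its reads went from 779 to 8331, a scaled ratio of 11.8 (10.96 to 12.7). The control was the low library and the co-depletions lay near each other. ZFAS1, on chromosome 20 and host of snoRNAs of the SNORD12 family, was at 379.8, 868, 3336 and 2290.5 FPKM, a change of 3.13 in SMG6/XRN1 with steps of 1.19 and 1.94. Its reads went from 5214 to 45591, a scaled ratio of 9.64 (9.37 to 9.93). GAS5, the growth-arrest transcript hosting several snoRNAs, was at 176, 412, 1482 and 1353 FPKM, a change of 3.07 with steps of 1.22 and 1.85. In both of these abundant hosts the SMG6/XRN1 library was the highest of the 4, and the step added beyond XRN1 depletion was larger than the step of XRN1 depletion itself.

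EPB41L4A-AS1 went from 16.4 FPKM in the control to 136 in SMG6/XRN1 (2.98), and SNHG1 from 55.9 to 439.9 (2.95). SNHG7 went from 37.0 to 204 (2.43), SNHG6 from 152 to 755 (2.30), SNHG15 from 12.4 to 60.6 (2.20) and SNHG5 from 379 to 1191 (1.65). SNHG15 had most of its difference in XRN1 alone, at 45.5 FPKM, whereas SNHG6 was at 259 in XRN1 and below its SMG6/XRN1 level in UPF1/XRN1, at 565. The lower-expressed SNHG11 and LINC00263 were 1.69 and 1.62 higher. Not every host was higher. SNHG8 (0.80) and SNHG9 (0.76) did not reach 2-fold by FPKM, DANCR and SNHG16 were at −0.10 and −0.21, and SNHG10 was at −0.46.

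**Figure D2:**
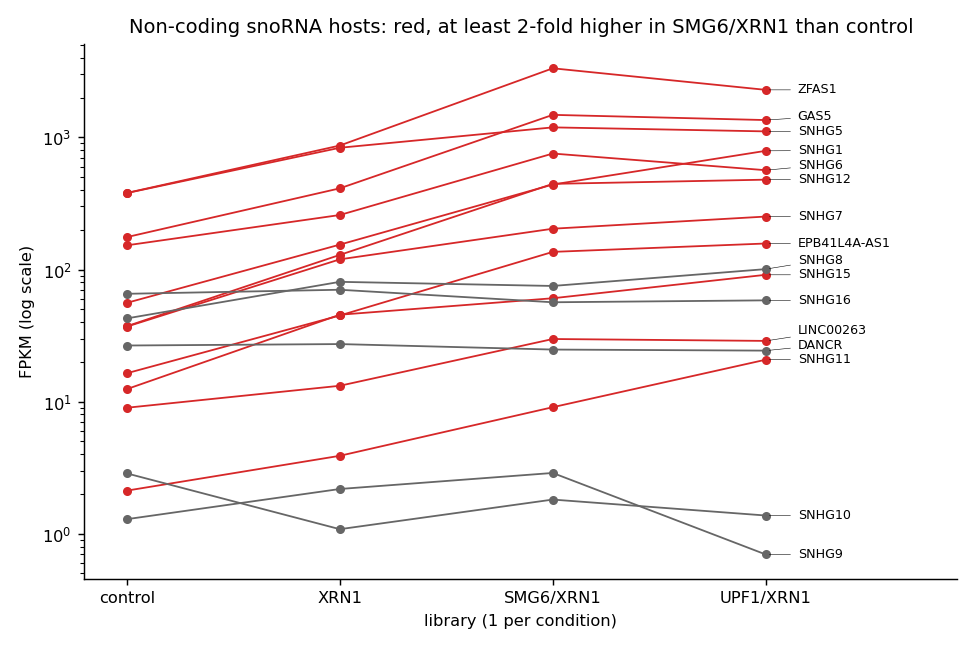
FPKM on a logarithmic axis of the 16 measured non-coding snoRNA hosts in the 4 libraries, 1 point per library, with the 11 hosts at least 2-fold higher in SMG6/XRN1 than in the control in red. Red lines climb from control to XRN1 to SMG6/XRN1, and the grey lines of DANCR and SNHG16 stay nearly flat.

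Protein-coding hosts of snoRNAs lay near the background. Of 55 listed, 51 were measured, 6 (11.8%, against 9.3% of all genes) were at least 2-fold higher, 0 were lower and the median was 0.22. Centring on the median gene left 2 of the 6 calls, and reads scaled to library totals gave 3. The same 2 settings gave 635 and 892 of all 12164 genes. TAF1D, a subunit of the RNA polymerase I factor SL1, had the largest difference by reads among the 6: it was at 62.4 FPKM with the control siRNA, 136 after XRN1 depletion, 486 in SMG6/XRN1 and 434 with UPF1/XRN1 depletion, a change of 2.94. Its reads went from 4071 to 31705, a scaled ratio of 8.59 (8.31 to 8.88), against 9.35 for GAS5. NOP58, a core snoRNP protein, was 1.24 higher, with reads going from 10581 to 20431 and a scaled ratio of 2.13 (2.08 to 2.18), and its partner NOP56 0.91 higher. UBAP2, the splicing kinase CLK1 and the sorting nexin SNX5 were 1.23, 1.23 and 1.17 higher. CHD8 is the sixth call and rests on FPKM alone, as described with the estimates that disagree. At the other end lay PRKDC (−0.59) and MYC (−0.57).

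The remaining named differences were mostly at duplicated loci. They followed a fixed rule of size, the 12 largest among loci with 1 symbol, a mean of at least 5 FPKM, at least 100 reads in either library and a read change past 2-fold in the same direction. PKD1P1, a partial copy of the polycystin gene PKD1 on chromosome 16, was named at 2 loci, both counted as protein-coding by the gene class used here. One was at 2.34 FPKM with the control siRNA, 30.5 after XRN1 depletion, 34.4 in SMG6/XRN1 and 24.2 with UPF1/XRN1 depletion, and the other at 1.71, 21.4, 24.9 and 31.6. Nearly the whole difference was present with XRN1 depletion alone, as the step from XRN1 to SMG6/XRN1 was 0.17 and 0.21. RP11-467M13.1 on the same chromosome (1.90 to 31.3 FPKM, steps of 3.27 and 0.21), CROCCP2 (1.32 to 19.6, steps of 2.87 and 0.28) and RP11-466P24.2 (0.961 to 15.4, steps of 2.74 and 0.32) had that same profile. TBC1D3F, of a primate family of near-identical copies, was at 0.644, 5.68, 16.2 and 18.4 FPKM, with steps of 2.02 and 1.36. ASNSP1, a pseudogene of asparagine synthetase, went from 2.10 to 27.9 FPKM with steps of 2.26 and 0.97, and PMS2P3, a pseudogene of the mismatch repair gene PMS2, from 3.69 to 40.7 with steps of 1.98 and 1.17. ACTN2, the sarcomeric α-actinin that HEK293 cells express at a low level, went from 1.12 to 17.8 FPKM and from 159 to 1861 reads, with steps of 2.35 and 0.80. All loci of this rule other than SNHG12, ZFAS1 and GAS5 thus had the larger of their steps with XRN1 depletion.

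Several mRNAs of the NMD machinery are known targets of the pathway they serve. Of 15 listed factors, 14 were measured, 4 (28.6%, against 9.3% of all genes) were at least 2-fold higher, 0 were lower and the median was 0.79. DHX34, an RNA helicase that promotes UPF1 remodelling, was at 1.20 FPKM with the control siRNA, 4.84 after XRN1 depletion, 5.74 in SMG6/XRN1 and 6.23 with UPF1/XRN1 depletion (1.61). SMG9, a subunit of the SMG1 kinase complex, was at 14.7, 29.9, 42.9 and 47.9 (1.49), and SMG5, which recruits decay factors to phosphorylated UPF1, at 7.27, 14.2, 18.6 and 21.9 (1.24). SMG1, the kinase of UPF1, was at 5.40 in the control and 13.3 in SMG6/XRN1 (1.16), a level that XRN1 depletion alone had reached at 13.8. The control was lowest for each of these 4. UPF2 and UPF3B were 0.92 and 0.91 higher, and the ATPases RUVBL1 and RUVBL2 were at −0.25 and −0.08. Centring left 2 of the 4 calls, and isoform signals summed per locus gave 7, against 635 and 2072 of all 12164 genes.

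The exon junction complex marks spliced junctions and is the signal that NMD reads. It had 1 of 14 measured members (7.14%, against 9.3% of all genes) at least 2-fold higher, 0 lower and a median of 0.17. That member was MAGOHB, the second copy of the core subunit MAGOH, at 73.6 FPKM in the control and 153 in SMG6/XRN1 (1.04), and centring ended the call. MAGOH itself differed by 0.11, and EIF4A3 and RNPS1 were at −0.32 and −0.34. The enzymes of general mRNA turnover showed no call. None of 28 measured decapping and deadenylation genes passed 2-fold (median 0.24, EDC4 at 0.77 and DDX6 at −0.27), nor any of 17 exosome and SKI complex genes (median 0.39, EXOSC8 at 0.92), by FPKM.

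Of 43 mRNAs listed as known NMD targets, 37 were measured. The list was drawn up with earlier results of these data known, so its share is not independent of them. Of these, 13 (35.1%, against 9.3% of all genes) were at least 2-fold higher, 0 were lower and the median was 0.87. Centring left 7 calls, against 635 of all 12164 genes. This list shares ZFAS1, GAS5, SMG5, CLK1 and SR protein genes with the others. PANK2, which makes coenzyme A, was at 11.9 FPKM with the control siRNA, 23.8 after XRN1 depletion, 40.5 in SMG6/XRN1 and 64.2 with UPF1/XRN1 depletion (1.69). ATF4, the stress transcription factor whose upstream reading frames make it a target, was at 241, 497, 603 and 601 (1.32). TBL2, MAP3K14, BAG1, UPP1 and GADD45A were 1.36, 1.30, 1.15, 1.14 and 1.05 higher. The listed targets did not all differ: RPL12 was at 0.11, HNRNPD at −0.07 and FAM210B at −0.37.

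Genes that ATF4 activates had 8 of 31 measured members (25.8%, against 9.3% of all genes) at least 2-fold higher and 0 lower. Of the 31, 30 lay above 0 and the median was 0.65. NUPR1, a stress-induced chromatin protein, was at 1.21 FPKM with the control siRNA, 4.32 after XRN1 depletion, 9.56 in SMG6/XRN1 and 12.1 with UPF1/XRN1 depletion (2.26). SLC3A2, the heavy chain of several amino acid transporters, was at 31.6, 62.2, 106 and 133 (1.72). CHAC1, STC2, SLC6A9, JDP2, SESN2 and ASNS were 1.52, 1.51, 1.36, 1.10, 1.05 and 1.02 higher. For STC2 and ASNS the XRN1 library was above SMG6/XRN1, at 16.5 against 13.5 FPKM and 319 against 289.5. ATF5 differed by 0.14, and AARS was the only measured member below 0, at −0.12. CHAC1, at 0.879 FPKM in the control, passed the filter on the mean only through other libraries. At a mean of at least 5 FPKM the list had 5 of 23 members higher, with a median of 0.62 against 0.24 for all genes. Counts for this list depended on the scaling, with 5 calls after centring and 14 with isoform signals summed per locus. The same 2 scalings gave 635 and 2072 of all 12164 genes.

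Serine/arginine-rich (SR) proteins and related splicing regulators had 7 of 24 measured members (29.2%, against 9.3% of all genes) at least 2-fold higher and 0 lower. Their median was 0.85, and centring left 4 calls, against 635 of all 12164 genes. The splicing kinase CLK4 was at 8.71 FPKM with the control siRNA, 21.3 after XRN1 depletion, 33.3 in SMG6/XRN1 and 31.1 with UPF1/XRN1 depletion (1.82). RBM39, a U2AF-related factor, was at 113, 196, 372 and 508 (1.70), and SRSF6 at 85.5, 177, 264 and 352 (1.62). SRSF10, CLK1, LUC7L and SRSF2 were 1.46, 1.23, 1.09 and 1.07 higher, though by scaled reads SRSF2 was at 0.42. SRSF1, SRSF4 and SRSF9 were at −0.06, −0.23 and −0.26. The hnRNP list had a median of −0.05, with 2 of 29 measured members (6.90%) at least 2-fold higher and 0 lower. The higher ones were TIA1 (17.4 to 50.3 FPKM, 1.48) and SFPQ (346 to 735, 1.09). For SFPQ the XRN1 library, at 278, was the lowest of the 4.

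Isoforms were compared on the authors' spike-in scaled signal, where 1 read was worth 3.85 in the control and 4.25 in SMG6/XRN1. Of the 61408 isoforms, 21586 (35.2%) were higher by 2-fold or more and 5232 (8.52%) lower by as much, and the median was 0.51. Many rest on few reads: 5752 were listed at 0 in the control and make up 4617 of the higher ones. Annotated types were available for 39046 isoforms marked as equal to a transcript of the authors' reference. Their types were taken from GENCODE v29 by transcript identifier without its version. Whether the transcript structure changed between versions was not checked. Isoforms of the nonsense-mediated decay type, which GENCODE assigns when the stop lies over 50 bases before the last junction, had 2014 of 3583 (56.2%) higher, 204 lower and a median of 1.27. Protein-coding isoforms had 24.5% of 25734 higher and a median of 0.34. Retained intron isoforms (42.2% of 3631, median 0.71) and processed transcripts (44.6% of 3782, median 0.82) lay between them.

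NMD-type isoforms are often rare in the control, so the types were also read where the control had at least 20 reads. There the NMD type had 770 of 1968 (39.1%) higher and 133 lower with a median of 0.71, and the protein-coding type 14.3% of 19895 with a median of 0.24. Retained introns came to 21.9% and processed transcripts to 24.7%, with medians of 0.33 and 0.43. The NMD type lay above these 3 types at both depths. A few small pseudogene types lay higher: transcribed unprocessed pseudogenes had a median of 2.07 over 59 isoforms and 0.86 over the 22 with 20 control reads, and unprocessed ones 1.46 over 75 and 0.78 over 24.

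**Figure D3:**
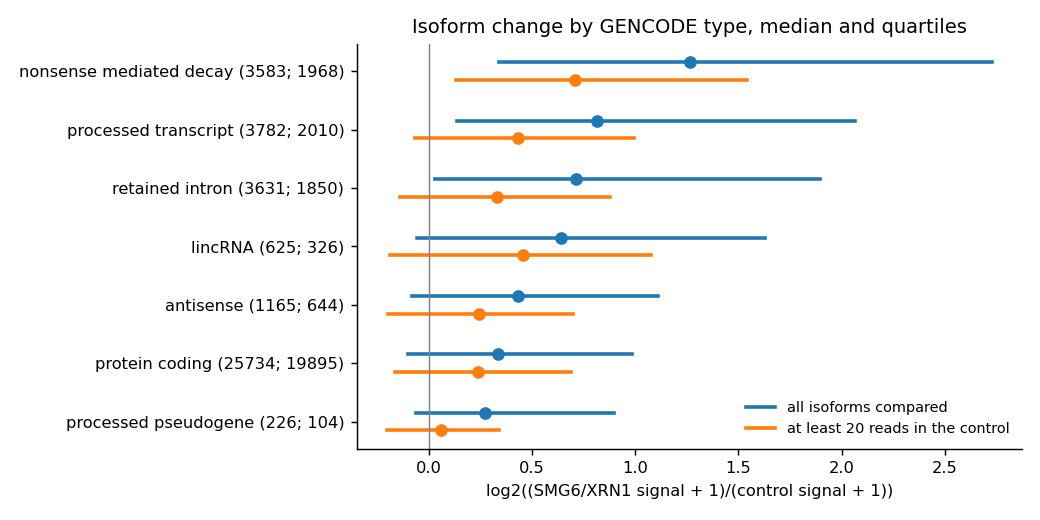
Points give the median and bars the quartiles of the log2 change in isoform signal in SMG6/XRN1 over control by GENCODE transcript type, for all isoforms compared (blue) and those with at least 20 control reads (orange), with both numbers beside each type. Only types with at least 200 isoforms compared are drawn, and of these the NMD type is highest in both views, with medians of 1.27 and 0.71.

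The position of the stop codon was taken from GENCODE for the isoforms with an annotated coding region. With the stop in the last exon, 23.8% of 22452 isoforms were at least 2-fold higher (median 0.32). With the last junction 1 to 50 bases after the stop, 26.8% of 1166 were higher (0.41), and with it over 50 bases after, 55.7% of 3710 (1.24). Of those 3710, 3562 are of the NMD type, which the same rule assigns, so that class largely repeats the result by type. Among isoforms annotated as protein-coding, those few with the junction over 50 bases downstream had 62 of 148 (41.9%) higher and a median of 0.70, against 26.6% of the 1152 with it 1 to 50 bases downstream. Beyond 50 bases the share varied little with distance: the share higher was 53.5% at 51 to 150 bases, 57.0% at 151 to 300, 54.4% at 301 to 600, 57.6% at 601 to 1200 and 56.7% beyond. In protein-coding isoforms that stop in the last exon, the share higher was 27.1% with up to 250 bases after the stop and 18.3% beyond 4000.

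The same classes at 20 control reads or more, a view chosen after seeing the data, had lower shares. With the stop in the last exon, 14.2% of 17726 isoforms were higher (median 0.24), with the junction 1 to 50 bases after it 14.9% of 899 (0.27), and with it over 50 bases after 38.7% of 2052 (0.70). Of those 2052, 1956 are of the NMD type. Protein-coding isoforms with the junction over 50 bases downstream had 26 of 96 (27.1%) higher and a median of 0.48. By distance beyond 50 bases the shares were 35.5%, 39.2%, 38.4%, 40.2% and 40.9% in the same order. By length after the stop the share was 14.97% at up to 250 bases, 15.96% at 501 to 1000 and 10.8% beyond 4000.

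NMD-type isoforms whose stop codon is also used by a protein-coding isoform of the gene were compared with those whose stop is not. A shared stop ends the reading frame where some annotated coding isoform of the gene ends it, and an unshared one lies where none does. Whether the junction downstream of a shared stop is absent from that coding isoform was not checked. At 20 control reads or more, 91 of 244 isoforms with a shared stop (37.3%) were at least 2-fold higher, with a median of 0.70, and 678 of 1722 with an unshared stop (39.4%), with a median of 0.71.

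The ends of the coding regions of the NMD-type isoforms that the results below turn on are shown here, because the stop codon and the junctions after it are what mark these transcripts. Each line is the last 30 coding bases, 5′ to 3′, with the stop codon in capitals, read from GENCODE v29 transcripts on GRCh38. Transcript versions can differ from those of the authors' reference, as for BRD2, and their structures were not compared.
HNRNPL: tctttcagaactgtgctaactcactgtTGA
SRSF10: ttcagatggctgattagtgaggggtgtTGA
TRA2B: aatgagtatttgaagctcaggaataagTGA
SRSF3: accatcatgtctcttctcaccaccctcTGA
SRSF6: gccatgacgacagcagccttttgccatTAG
SRSF7: aggtttcttcgtttgagtcagtcgcctTGA
BRD2: cagccccagaggattatcacaaaattaTAA
BCLAF1: tttgtcttttacacggcttatggtggaTGA
HNRPDL: aatcaccaaaacaattaccagccatacTAA
HNRNPA1: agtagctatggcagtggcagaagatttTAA
HNRNPA2B1: gggggttatggtgggaggagccgatacTGA

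The stop of HNRNPL ENST00000388749 lies at chr19:38841624-38841626 on the minus strand, in exon 7 of 14 and 842 bases before the last junction. That of SRSF10 ENST00000495785 lies at chr1:23978673-23978675 (minus strand, exon 2 of 5, 490 bases), and that of TRA2B ENST00000456380 at chr3:185931772-185931774 (minus strand, exon 2 of 10, 1015 bases). The stop of SRSF3 ENST00000477442 lies at chr6:36599852-36599854 on the plus strand in exon 4 of 7, with 548 bases to the last junction. SRSF6 ENST00000483871 stops at chr20:43459302-43459304 (plus strand, exon 3 of 7, 534 bases) and SRSF7 ENST00000425778 at chr2:38749319-38749321 (minus strand, exon 4 of 9, 697 bases). BRD2 ENST00000482914 stops at chr6:32975400-32975402 (plus strand, exon 5 of 14, 1917 bases) and BCLAF1 ENST00000527613 at chr6:136269264-136269266 (minus strand, exon 10 of 14, 661 bases). The stops of HNRNPA1 ENST00000547566 (chr12:54284311-54284313, plus strand, exon 9 of 11) and HNRNPA2B1 ENST00000360787 (chr7:26192516-26192518, minus strand, exon 11 of 13) are shared with a protein-coding isoform and lie 75 and 157 bases before the last junction. The stop of HNRPDL ENST00000502762 (chr4:82426059-82426061, minus strand, exon 7 of 9) is likewise shared and lies 127 bases before it. The stops of TRA2B and BCLAF1 are also used by a protein-coding isoform.

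SR protein genes are known to splice in exons that carry a stop codon, which lowers their own output through NMD. At the listed genes, 48 NMD-type isoforms of 31 genes had at least 20 control reads, of which 30 were at least 2-fold higher, 2 lower and the median was 1.70. All NMD-type isoforms at that depth had 770 of 1968 (39.1%) higher and a median of 0.71. The isoforms named from these 48 were those with most reads in SMG6/XRN1. That choice was made after their values were seen, and it favours isoforms that are high in that library. HNRNPL ENST00000388749 had 1409 estimated reads in the control, 3404 with XRN1, 14454 with SMG6/XRN1 and 22568 with UPF1/XRN1, a scaled ratio in SMG6/XRN1 of 11.3 (10.7 to 11.96). The protein-coding isoforms of the locus together went from 14814 to 10112 reads, a ratio of 0.753, so the NMD-type isoform went from 7.5% to 52.0% of the locus. SRSF10 ENST00000495785 had 323, 908, 3459 and 6565 reads, a ratio of 11.8 (10.54 to 13.3), against 1.63 for its protein-coding isoforms.

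TRA2B, an SR-like splicing activator, had 1106, 3301, 8435 and 18515 reads of ENST00000456380, a ratio of 8.41 (7.90 to 8.96), with its protein-coding isoforms at 1.04. SRSF3 ENST00000477442 had 2084, 7700, 13597 and 18827 reads, a ratio of 7.20 (6.87 to 7.54), with its protein-coding isoforms at 0.907. SRSF7 ENST00000425778 had 1671, 3246, 6610 and 8788 reads, a ratio of 4.36 (4.13 to 4.61), with the coding isoforms at 1.04. In TRA2B, SRSF3 and SRSF7 the NMD-type isoform stood apart in the order control, XRN1, SMG6/XRN1, UPF1/XRN1, while the coding isoforms differed little. By gene-level FPKM SRSF3 differed by 0.39 and HNRNPL, whose coding isoforms were at 0.753, by 0.35. SRSF10 did pass 2-fold as a gene. SRSF6 ENST00000483871 had 3159, 9041, 13465 and 20250 reads, a ratio of 4.70 (4.52 to 4.89). HNRNPH1 ENST00000510678 was 3.17 times the control, and 2 isoforms of the SR-related gene RSRC2 were 2.86 and 6.49 times it. HNRPDL ENST00000502762 went from 2857 to 12779 reads, a ratio of 4.93 (4.74 to 5.14), while the coding isoforms matched at that locus went from 1163 reads to 0. The most abundant NMD-type isoforms differed least: HNRNPA2B1 went from 37320 to 48143 reads (1.42 times) and HNRNPA1 from 57089 to 47439 (0.917 times).

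**Figure D4:**
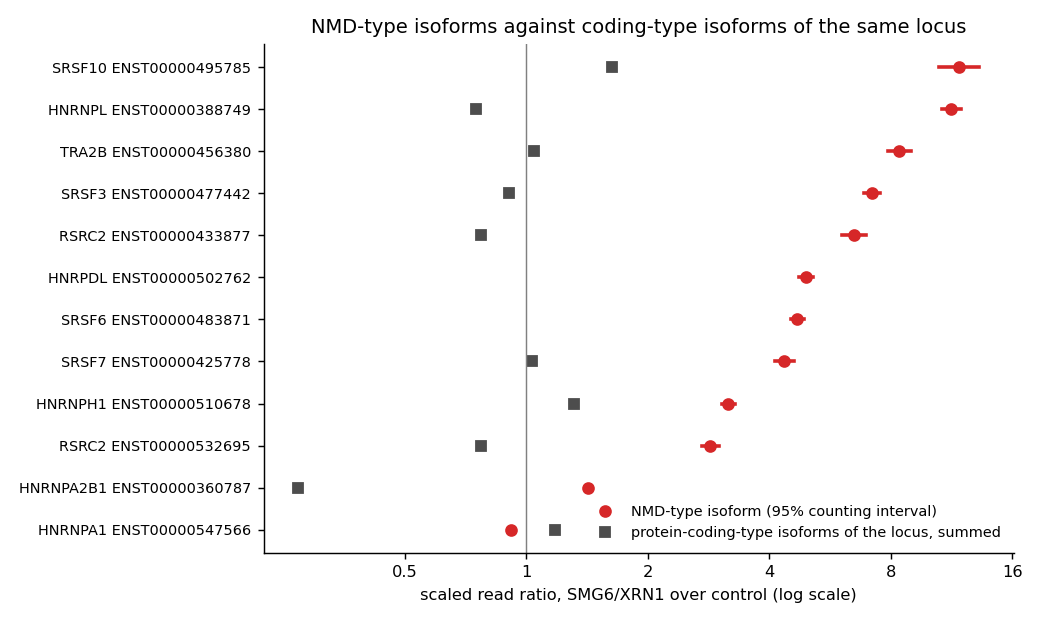
Scaled read ratio of SMG6/XRN1 over control on a logarithmic axis for 12 NMD-type isoforms of listed splicing genes (red, with 95% intervals for counting error) and for the protein-coding-type isoforms of the same locus summed (grey squares, drawn where these had reads in both libraries). Red points run from 0.917 for HNRNPA1 to 11.8 for SRSF10. Each lies to the right of the square of its locus where one is drawn, except HNRNPA1, at 0.917 against 1.18. The squares of HNRNPA1 and HNRNPA2B1 rest on 429 and 1970 control reads, against 57089 and 37320 of the NMD-type isoform, and so cover little of the locus. The 12 isoforms were those with most reads in SMG6/XRN1.

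The share of NMD-type reads within a locus does not depend on the scaling between libraries. Over 2497 loci with at least 200 reads of NMD-type and protein-coding-type isoforms in both libraries, this share was higher in SMG6/XRN1 at 1845 (73.9%), by 10 percentage points or more at 384, and lower by as much at 73. Its median was 2.59% in the control, 3.29% with XRN1, 5.58% with SMG6/XRN1 and 6.40% with UPF1/XRN1. Pooled over these loci, NMD-type isoforms took 9.95%, 11.3%, 14.0% and 15.3% of the reads. For retained introns, counted the same way at 3294 loci, the share was higher at 60.9% and its median went from 0.856% to 1.23%. For processed transcripts it was higher at 64.7% of 3259 loci, with medians of 0.793% and 1.29%.

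Among single isoforms with at least 10 reads in both libraries, the largest ratio belonged to BRD2 ENST00000482914, an NMD-type isoform of a bromodomain chromatin reader. It had 14 reads in the control, 738 with XRN1, 2427 with SMG6/XRN1 and 2794 with UPF1/XRN1, a ratio of 191 (114 to 350.3). BCLAF1 ENST00000527613, an NMD-type isoform of an RNA-binding factor, had 19, 2879, 2879 and 3683 reads, so its difference was complete with XRN1 depletion. CACNA2D3 ENST00000471363, an NMD-type isoform of a calcium channel subunit, had 12, 520, 704 and 619. The coding isoforms of BRD2 were 3.16 times the control and those of BCLAF1 1.02 times. The other named isoforms were a protein-coding one of the cohesin gene STAG2 (11 to 809 reads) and unannotated splice forms of the pseudogenes CCT6P1 (14 to 1097) and CROCCP2 (16 to 930).

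The largest losses were named by the same rule of at least 10 reads in both libraries, which by itself makes them isoforms with many control reads. AP2B1 ENST00000262325, of the clathrin adaptor subunit, went from 1670 reads in the control to 226 with XRN1, 10 with SMG6/XRN1 and 424 with UPF1/XRN1. RBBP4 ENST00000458695 went from 1154 to 13 reads and PDE4DIP ENST00000479408 from 1099 to 16. HNRNPL ENST00000601449 had 3375 reads in the control, 4891 with XRN1, 48 with SMG6/XRN1 and 0 with UPF1/XRN1, at the locus where ENST00000388749 gained. Reads are apportioned among overlapping isoforms by estimate, and counting intervals do not cover that step.

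Isoform use within loci was read as the share of the reads of the locus, at 9114 loci with at least 200 reads in both libraries. Of 67255 isoforms, 967 (1.44%) gained 20 percentage points or more and 1178 (1.75%) lost as much. By type, NMD-type isoforms had 98 gains and 16 losses among 4581, and protein-coding ones 395 gains and 767 losses among 26405. Retained introns had 16 gains and 10 losses among 7260, and processed transcripts 26 of each among 6596. The 8 largest gains, 1 per locus, contained no NMD-type isoform. ORAI2 ENST00000356387, of a calcium release-activated channel, had 0 of 276 locus reads in the control, which allows a share of up to 1.09% by a floor of 3 reads, and 257 of 270 (95.2%, 91.9 to 97.4) in SMG6/XRN1. It was at 44.1% in XRN1 and 94.9% in UPF1/XRN1. SWT1 ENST00000367500 went from 29.6% to 99.6%, LEPREL4 ENST00000393928 from 9.42% to 79.1%, and FAT3 ENST00000409404 from 0.837% to 90.5%, each with a like share in the 2 other depleted libraries. BACH2 ENST00000537989 went from 0 reads to 72.0% of the locus and was at 0.0113% in XRN1. The CYB561 isoform that gained, a splice form that matches no annotated transcript, was at 0 in all libraries but SMG6/XRN1, where it took 71.7%. FGD4 ENST00000531134 was at 68.6% in SMG6/XRN1 and 67.3% in XRN1 but 0.0465% in UPF1/XRN1, and an unannotated KDM6B splice form went from 0 to 68.1%.

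Immediate-early mRNAs, short-lived messages of growth factor signalling, had 5 of 27 measured members (18.5%, against 9.3% of all genes) at least 2-fold higher and 0 lower. Their median was 0.49, against 0.05 in XRN1 and 0.23 in UPF1/XRN1 over the control. The transcription factor ETV5 was at 3.12 FPKM with the control siRNA, 2.54 after XRN1 depletion, 13.0 in SMG6/XRN1 and 6.31 with UPF1/XRN1 depletion (1.76). Its relative ETV4 was at 2.75, 4.03, 10.7 and 4.69 (1.65), and FOSB at 0.917, 0.903, 3.47 and 1.19 (1.22). EGR1 was at 5.23, 4.42, 13.3 and 9.04 (1.20). For these 4 the SMG6/XRN1 library was the highest, and XRN1 depletion alone differed from the control by between −0.22 and 0.42 on the log2 scale. FOSL1 was 1.06 higher, FOS 0.87 and DUSP6 0.49, while MYC was at −0.57. FOSB, under 1 FPKM in the control, passed the filter on the mean only through other libraries. At a mean of at least 5 FPKM the list had 4 of 19 members higher, with a median of 0.54 against 0.24 for all genes. Centring left 2 calls and isoform signals summed per locus gave 8. The same 2 settings gave 635 and 2072 of all 12164 genes.

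Targets of p53 had 3 of 28 measured members (10.7%, against 9.3% of all genes) at least 2-fold higher, EDA2R (1.28), SESN2 (1.05) and GADD45A (1.05), with 0 lower, 25 above 0 and a median of 0.60. CDKN1A, the cell-cycle inhibitor p21, was at 13.1 FPKM with the control siRNA, 17.2 after XRN1 depletion, 25.4 in SMG6/XRN1 and 36.2 with UPF1/XRN1 depletion (0.91), and the death receptor FAS at 8.41, 8.91, 16.7 and 16 (0.91). MDM2 differed by 0.09, and ZMAT3 was at −0.89. EDA2R, at 0.984 FPKM in the control, passed the filter on the mean only through other libraries. At a mean of at least 5 FPKM the list had 2 of 21 members higher, with a median of 0.61 against 0.24 for all genes. Centring left 1 call, and isoform signals summed per locus gave 10. The same 2 settings gave 635 and 2072 of all 12164 genes. Interferon and RNA-sensing genes had 1 of 18 measured members (5.56%, against 9.3% of all genes) higher. This was the RNA sensor IFIH1 (2.38 to 5.94 FPKM, 1.04), a call that centring ended. DDX58 was at 0.99 and the list median was 0.34. None of 7 measured inflammatory cytokine genes passed 2-fold. IL8 was at 11.4 FPKM with the control siRNA, 2.39 after XRN1 depletion, 9.04 in SMG6/XRN1 and 7.49 with UPF1/XRN1 depletion, and IL32 at 52.2, 19.8, 40.9 and 30.7, so XRN1 was the low library for both. The list median was 0.50, but −0.30 among members of at least 5 FPKM.

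Polyamine genes had 2 of 12 measured members (16.7%, against 9.3% of all genes) at least 2-fold higher. These were SAT1, the acetyltransferase that begins polyamine breakdown (852 to 2029 FPKM, 1.25), and the oxidase SMOX (1.34 to 3.74, 1.02). Centring ended both calls. Antizyme OAZ1 was at 0.49 and spermine synthase SMS at −0.31. The UGA codons of selenoprotein genes can be read as stops. Of 15 measured, SELO alone (6.67%, against 9.3% of all genes) was at least 2-fold higher (2.08 to 5.99 FPKM, 1.18). The list median was 0.08, and centring ended that call. GPX1, a selenoprotein mRNA often used as an NMD model, was at −0.12. Of 7 measured RNAs of the list of nuclear-retained RNAs, 2 (28.6%, against 9.3% of all genes) were higher and 0 passed 2-fold downward. The libraries were made from cytoplasmic RNA, so these values do not give nuclear levels. The higher ones were PVT1 (6.05 to 43.5 FPKM, 2.66) and NEAT1 (3.62 to 11.3, 1.41). LINC00657, which is in that list although it is known as a mainly cytoplasmic RNA, was at −0.76 and passed 2-fold downward after centring.

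The medians of the housekeeping lists lay below that of all genes. Of 78 measured ribosomal protein genes, 0 passed 2-fold and the median was 0.05, with RPL23 at −0.55 and RPL10A and RPS12 at 0.54. The sign of that median turns with the scaling, as it was −0.20 after centring, −0.12 with reads scaled to library totals and 0.16 with summed isoform signals. None of 30 proteasome genes (median 0.02), 44 nuclear-encoded respiratory chain genes (−0.04), 36 translation factors (−0.01), 23 replication-dependent histone genes (0.10) or 19 aminoacyl-tRNA synthetases (0.22) passed 2-fold, and the sign of each of these medians also turned under at least 1 scaling. The same held for the hnRNP, exon junction complex, selenoprotein, decapping and protein-coding snoRNA host lists. Of 30 chaperones, HSPA1B alone (3.33%, against 9.3% of all genes) was higher (1.35), at a locus where the symbol covers 51% of the reads. Among 19 common reference genes, GUSB was higher in all depleted libraries, at 5.70 FPKM in the control, 29.1 with XRN1, 42.9 with SMG6/XRN1 and 39.7 with UPF1/XRN1 (2.71), while POLR2A and YWHAZ differed by 0.01 and −0.05. Of the markers of other cell types, the muscle actin ACTA1 was 1.11 higher, from 0.309 to 1.84 FPKM and from 13 to 97 reads. It passed the filter on the mean only through other libraries.

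**Figure D5:**
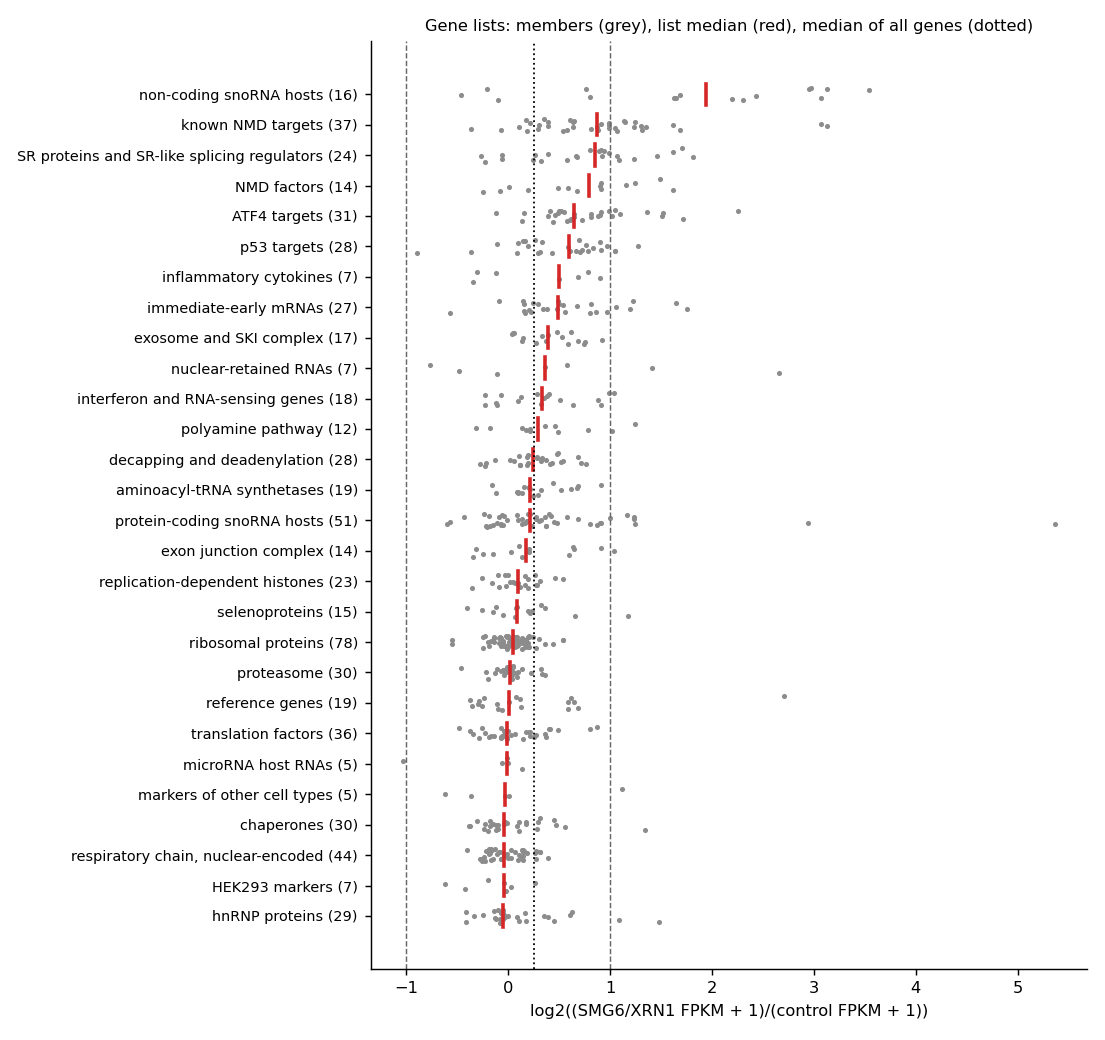
Each grey point is 1 measured member of a gene list, with the number measured in brackets, at its log2 change in SMG6/XRN1 over control, and red bars mark list medians. Medians run from −0.05 for hnRNP proteins to 1.94 for non-coding snoRNA hosts, and 12 of the 28 lie above the dotted line, the median of all genes at 0.25.

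Lower genes were few and often thinly covered. Of the 32, 17 had fewer than 100 control reads and 19 were also 2-fold lower by scaled reads. The rule for named genes found 1, PIGCP1, a processed pseudogene of PIGC on chromosome 11, at 7.77 FPKM in the control, 5.45 with XRN1, 3.21 with SMG6/XRN1 and 3.80 with UPF1/XRN1 (−1.06). Its reads went from 222 to 90, a scaled ratio of 0.447 (0.346 to 0.574). Others were chosen after their values were seen. BCYRN1, the brain cytoplasmic RNA transcribed by RNA polymerase III, was at 11.2, 3.58, 0.734 and 1.12 FPKM (−2.81) and went from 5997 reads to 386. TSPYL4 was at 8.90, 2.77, 3.21 and 2.31 (−1.23), RAI2 at 8.38, 5.10, 3.30 and 2.24 (−1.12) and COPS8 at 31.1, 10.8, 14.2 and 11.7 (−1.08). SYNC was at 42.3, 20.04, 20.46 and 15.2 (−1.01) and KLHL9 at 15.7, 6.70, 7.24 and 6.91 (−1.02). By scaled reads COPS8, SYNC and KLHL9 fell short of 2-fold, at −0.87, −0.94 and −0.97, while TSPYL4 and RAI2 were at −1.36 and −1.20. In all of these the control was the highest library.

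At some loci FPKM and reads disagree, and no direction is read from FPKM there. CHD8, a chromatin remodeller whose introns host snoRNAs, was at 10.2, 11.04, 459 and 55.3 FPKM while its reads were 2128, 2161, 2585 and 2659. KBTBD4 was at 4.88, 4.64, 23.0 and 4.76 FPKM with 447, 395, 457 and 478 reads, and KIF1B at 101, 16.3, 23.5 and 21.9 FPKM with 3145, 2956, 3239 and 2896 reads. The chaperonin pseudogenes CCT6P1 and CCT6P3 disagree the other way. CCT6P1 was 0.997 higher by FPKM and 3.85 by scaled reads, from 231 to 3025, and CCT6P3 1.61 and 4.35, from 211 to 3912. These 5 differ most among genes with at least 100 reads in both libraries.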

How the data were processed

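Reads of 4 RNA-seq libraries were processed by the authors, per the submitters' processing notes, on hg19 with Cufflinks 2.0.2, TopHat2 2.0.6, Bowtie 0.12.7 and CASAVA 1.8.2, named there with no role or order. The authors deposited FPKM per assembled locus and, per isoform, a spike-in normalised signal. The sources used here do not describe the spike-in. Other deposited columns hold the authors' identifiers, class codes and TRUE or FALSE marks. Their NMD mark was TRUE exactly where both co-depletions exceeded 2 times the control, with 0 mismatches, so it uses this comparison and supports nothing here.

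Estimated reads were the signal divided by the value of 1 read per library, 3.72 to 4.25. At loci of up to 20 reads, 84.5% to 86.6% came out whole within 0.01. The others hold fractions shared among isoforms, so no count test was run. Loci were joined by the deposited identifier table. The pseudocount was 1 and calls were made at 2-fold. Isoforms needed a mean signal of 30.9, the median of the nonzero means. Ratios carry exact conditional binomial intervals and shares Clopper-Pearson intervals, both at 95% and for counting error only. Reads without molecular identifiers are not independent molecules. Transcript types and stops came from GENCODE v29 (GRCh38), and hg19 coordinates were not used. They were matched by transcript identifier without its version for 181239 of 198366 isoforms with a reference. At 401 of the genes compared the symbol covers under 80% of the reads, 2172 carry several symbols and 25 have a library listed at 0. The 28 lists (778 entries), the members and the naming rules were chosen with earlier results of these data known. For each list the rule named up to 3 largest rises and 2 largest falls. It also took the 6 largest isoform rises and 4 largest falls, the 8 largest share gains and 5 genes whose FPKM and reads differ most. Further members were named after their values were seen. Scripts used Python 3.11.15, pandas 2.3.3 and scipy 1.17.1, and were tested on simulated data. Some items that the naming rules pick are not reported here.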

Additional observations from a re-analysis of the deposited data

How the results depend on the processing

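No paired analysis was possible because each condition had 1 library, and leaving a library out leaves no comparison. The 1131 genes higher became 1730 with a pseudocount of 0.1, 730 with a mean of at least 5 FPKM, 635 after centring on the median gene and 2072 with isoform signals summed per locus. The 32 lower became 71, 16, 79 and 46 in the same order. Isoforms higher numbered 12256 at 4 times the filter and 41337 without a filter, and isoforms lower 2056, 17732 and, after centring, 8536. Share gains numbered 267 at 1000 locus reads and 1806 at 50, and losses 342 and 2089. Under each setting for genes the higher ones outnumbered the lower, at 88.9% to 97.9% of calls. All of these settings used loci of the gene table, where none is listed at 0 in SMG6/XRN1, so complete losses are missing from each. The gene median was 0.25 in FPKM, 0.39 in summed signals and 0.10 in reads scaled to library totals. KIF1B turned to 0.18 with summed signals and KBTBD4 to −0.10 with reads scaled to library totals. Of 154 named loci, 49 passed 2-fold, and 12 of these no longer did after centring. The number of lists with a median above that of all genes was 11 or 12 in all settings. The cause of each shift was not tested. Depth limits the isoform values: 5752 of 61408 had 0 control reads, where up to 3 reads are allowed and no ratio is given. With at least 20 control reads, an alternative chosen after seeing the data, 7841 isoforms were higher and 3893 lower.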
